A study of Mus musculus with 6 samples.

Results

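The genes of glycolysis, gluconeogenesis and glucose transport were examined in liver tumours of male mice, as a list of 31 genes taken by name. A gene was measured where the array had a probe set annotated with that gene alone, and the probe set with the highest mean over the 6 arrays stood for the gene. On this rule 27 of the 31 genes were measured, out of 12393 genes on the array, and Gpi1, Pfkfb1, Eno1 and G6pdx were not analysed here. The tumours came from 3 Alb/AEG-1 mice and 3 WT mice, each on its own Affymetrix expression array. Alb/AEG-1 mice carry an AEG-1 transgene (astrocyte elevated gene-1, whose mouse gene is Mtdh) and were made by injecting a 5.3-kb fragment into B6CBAF1/J embryos, and the labels give CD-1 as the background strain of both genotypes. Alb stands for the albumin promoter, which directs a transgene to hepatocytes. All 6 mice had received the liver carcinogen N-nitrosodiethylamine (DEN) at 14 days of age, as 1 dose of 10 µg per g body weight, and the tumours were collected at 28 weeks. No untreated liver is among the samples, so every comparison is between tumours. The labels do not say how many tumours went into an array, nor the founder line.

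Liver is the organ that both stores and releases glucose. It takes glucose up through the low-affinity transporter GLUT2 and phosphorylates it. It runs glycolysis with its own isoforms, such as the L form of pyruvate kinase, and it can reverse the pathway through pyruvate carboxylase, PEP carboxykinase, fructose bisphosphatase and glucose-6-phosphatase. Fetal liver and many tumours instead use the widely expressed isoforms: GLUT1 (Slc2a1), hexokinase 2 (Hk2), aldolase A (Aldoa) and the M form of pyruvate kinase (Pkm). A shift from the liver set to this other set is a known feature of poorly differentiated hepatocellular carcinoma.

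Values are log2 expression levels as deposited, so a difference of 1 is 2-fold. All differences are Alb/AEG-1 minus WT. The small number of arrays, 3 per genotype, limits how precise any difference can be. Mtdh itself was at 9.57, 9.40 and 9.15 in Alb/AEG-1 tumours and 9.32, 9.03 and 9.16 in WT tumours, which overlap, but the labels do not state the species of the transgene, so this does not check the genotype. Hepatocyte markers were bright in both groups: the mean level of the 7 measured markers was 13.28 to 13.39 in Alb/AEG-1 tumours and 13.31 to 13.40 in WT tumours. The animal numbers fall into a lower range (Alb/AEG-1 replicates 1 and 2, WT replicate 1) and a higher range (Alb/AEG-1 replicate 3, WT replicates 2 and 3). The labels do not call these ranges a batch, and differences within each are given where they matter.

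No gene of the list differed between Alb/AEG-1 and WT tumours past the test. With limma and Benjamini-Hochberg adjustment over all probe sets, 0 of 27 genes passed an adjusted p of 0.05, and the adjusted p of the 27 genes ran between 0.637 and 0.987. On the whole array 1 of 22626 probe sets passed (0.00442%). At an unadjusted limma p below 0.05 the count was again 0 of 27, where 1032 of 12393 genes (8.33%) stood below it, and it was 0 also with a variance trend or robust moderation. The 3 values of 1 genotype lay wholly beyond those of the other in 2 of 27 genes, Pkm (higher) and Pfkm (lower), where 15.1% of all genes did so. The median difference was -0.056, against -0.0081 over all genes, with 10 genes positive and 17 negative. Leaving out 1 array brought up to 2 genes below an unadjusted limma p of 0.05: Pdk1 and Pklr without Alb/AEG-1 replicate 3, Gys2 and Slc37a4 without WT replicate 1, Slc2a1 without WT replicate 2, and Aldoc and Eno3 without WT replicate 3. None of the 27 passed over all probe sets in any of these fits. The share of all genes below the unadjusted p in these fits is not given here, so these counts have no background beside them.

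**Figure D1:**
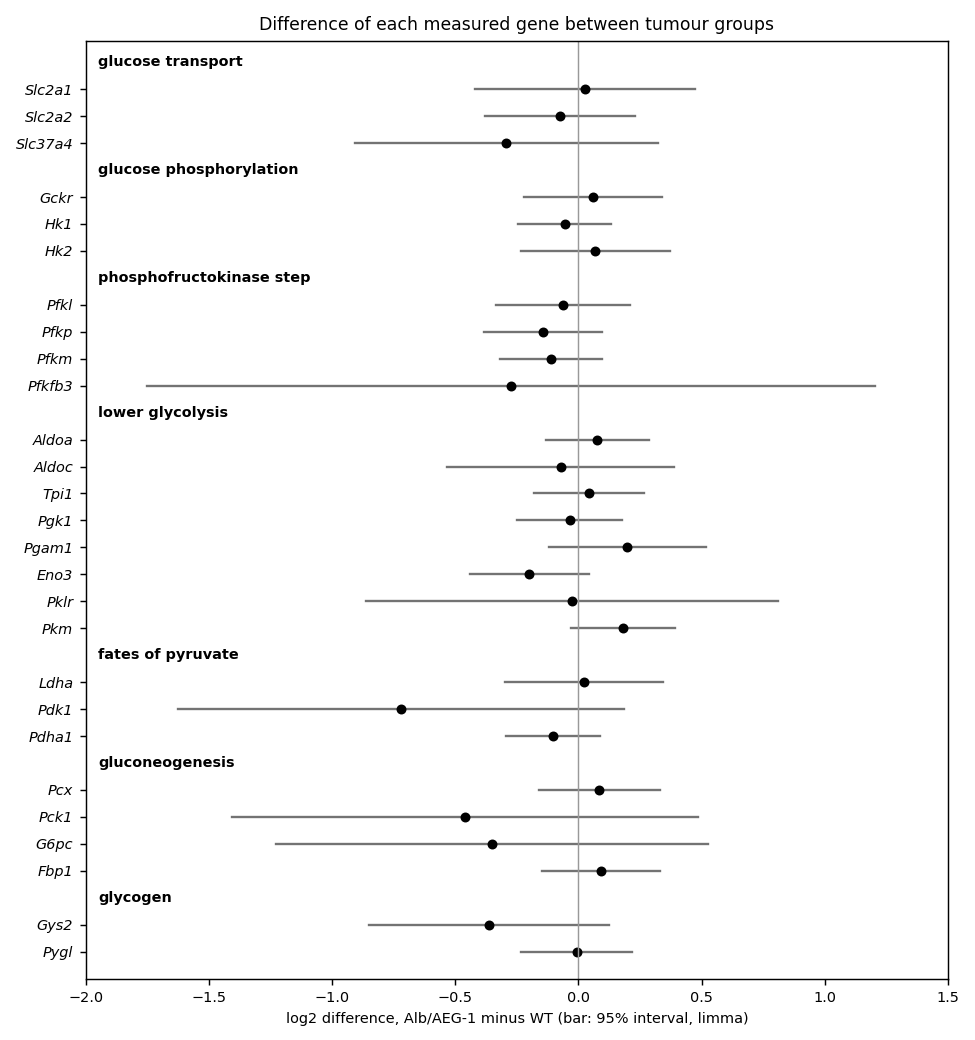
Log2 difference (Alb/AEG-1 minus WT, x axis) of the 27 measured genes, grouped by role down the page; points are limma estimates and bars their 95% intervals. Every interval holds 0, and the widest belong to Pfkfb3, Pdk1, Pck1 and G6pc.

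The intervals say how large a difference these arrays could have missed. For 20 of 27 genes the 95% interval lay within 1.5-fold in either direction, as it did for 86.7% of all genes. For 4 genes it reached beyond 2-fold: Pfkfb3 (-1.75 to 1.20), Pdk1 (-1.63 to 0.19), Pck1 (-1.41 to 0.48) and G6pc (-1.23 to 0.52). Pklr, Slc37a4 and Gys2 lay between these limits. A missed threshold does not show equal levels in any gene, and for these 7 genes differences beyond 1.5-fold could have been missed.

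The isoforms associated with fetal liver and tumours did not differ past the test. Hk2, the hexokinase bound to mitochondria in muscle and many tumours, was at 4.39, 4.71 and 4.74 in Alb/AEG-1 tumours, against 4.61, 4.36 and 4.67 in WT tumours. The groups interleaved, and the difference was 0.069 ± 0.129 (SE, 95% interval -0.23 to 0.37). Aldoa, the aldolase of muscle and most dividing cells, was at 9.05, 8.92 and 8.82 in Alb/AEG-1 tumours and at 8.82, 8.83 and 8.91 in WT tumours. Its difference was 0.077 ± 0.090 (-0.13 to 0.29). All 4 Aldoa probe sets carry the x_at mark, which means that they can pick up relatives of the gene, and their differences lay between 0.051 and 0.16.

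Pkm, the pyruvate kinase of non-hepatic tissues, was at 5.54, 5.65 and 5.66 in Alb/AEG-1 tumours, against 5.51, 5.31 and 5.49 in WT tumours. Each Alb/AEG-1 value lay above each WT value and the difference was 0.18 ± 0.09 (95% interval -0.032 to 0.39, limma adjusted p = 0.637). Among lower animal numbers the difference was 0.089, and among higher ones 0.26. Macrophages also express Pkm, and in a bulk tumour a change in the number of such cells and a change in RNA per cell cannot be told apart. All 11 of 11 macrophage markers had a positive difference, 4 of them at an unadjusted limma p below 0.05. Over all 12393 genes, 5925 were positive and 8.33% stood below that p. The mean level of the macrophage markers was 7.47, 7.77 and 8.09 in Alb/AEG-1 tumours and 7.52, 7.11 and 7.22 in WT tumours, and their summed linear level ran from 2737 to 4289 in Alb/AEG-1 tumours and from 2032 to 2808 in WT tumours. No marker can be at 0 on this scale, and Clec4f, which defines Kupffer cells, averaged 7.88 in Alb/AEG-1 and 7.66 in WT tumours. The part of these cells in the Pkm value was not tested.

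Slc2a1, encoding the basal glucose transporter GLUT1, was at 7.02, 7.17 and 6.98 in Alb/AEG-1 tumours, against 6.74, 7.49 and 6.84 in WT tumours. The WT values lay on both sides of the Alb/AEG-1 ones, and the difference was 0.027 ± 0.191 (-0.42 to 0.47). Its 3 probe sets were unequal. One stood at 6.35, 6.37 and 6.48 in Alb/AEG-1 tumours and at 5.76, 6.41 and 5.98 in WT tumours, a difference of 0.34 ± 0.16 (limma adjusted p = 0.627), while the remaining one differed by 0.024. The Slc2a1 value turned with 1 WT array: it was 0.26 without WT replicate 2 and -0.11 without WT replicate 1.

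Among the other widely expressed isoforms, Hk1, the hexokinase of brain and red cells, differed by -0.056 ± 0.080, Pfkp, the platelet phosphofructokinase, by -0.15 ± 0.10 and Aldoc, the brain aldolase, by -0.073 ± 0.198. A dimmer Pfkp probe set pointed the other way, at 0.24 ± 0.10 (adjusted p = 0.618), and so did a dimmer Hk1 probe set at 0.13 ± 0.11. Over the 8 genes of this isoform list, 4 were positive and 4 negative, with a median difference of -0.015. Hk1, Hk2, Pfkp and Pkm lay below the median probe set of the array (5.83), and no detection calls were used here.

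**Figure D2:**
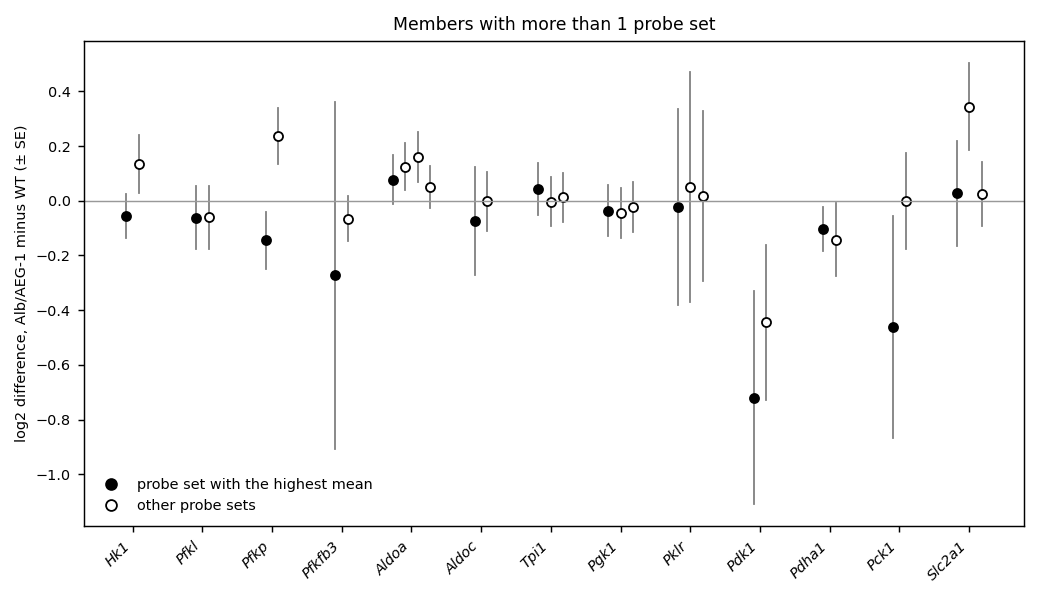
Log2 differences (y axis, Alb/AEG-1 minus WT, bars ± SE) of every probe set of the 13 genes with more than 1 probe set. Filled points are the probe sets that stand for the gene; those of Aldoa, Pgk1, Tpi1 and Pklr lie close together. The filled and open points of Pck1 lie farthest apart (-0.46 and -0.00069), and those of Pfkp, Hk1, Slc2a1 and Pdk1 are also spread.

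The liver isoforms were equally without a difference past the test. Slc2a2, encoding GLUT2, was at 11.55, 11.63 and 11.96 in Alb/AEG-1 tumours, against 11.66, 11.94 and 11.77 in WT tumours, a difference of -0.075 ± 0.130 (95% interval -0.38 to 0.23). Gckr, a regulator of glucose phosphorylation in liver, was at 10.27, 10.16 and 10.48 in Alb/AEG-1 tumours and 10.35, 10.32 and 10.06 in WT tumours (0.060 ± 0.120). Pfkl, the liver phosphofructokinase, differed by -0.061 ± 0.117, and its second probe set by -0.060. Over the 11 measured genes of the liver isoform list, 3 were positive and 8 negative, with a median of -0.061.

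Pklr, the liver pyruvate kinase that is induced by glucose and insulin, had nearly equal group means and very unequal tumours. It was at 8.36, 8.50 and 9.82 in Alb/AEG-1 tumours, against 8.67, 9.11 and 8.97 in WT tumours. Alb/AEG-1 replicate 3 was the highest of all 6 arrays and the other Alb/AEG-1 arrays the lowest, so that the WT values lay between them. The SD was 0.80 in Alb/AEG-1 and 0.23 in WT tumours (n = 3 each), and the difference was -0.024 ± 0.359. All 3 Pklr probe sets had this order of the Alb/AEG-1 arrays around the WT ones, with Alb/AEG-1 replicate 3 at 9.49 and 8.20 in the other two. Without Alb/AEG-1 replicate 3 the difference was -0.49, and within the higher animal numbers, which hold that array, it was 0.77.

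Set against its liver partner within each array, a tumour isoform shows only whether both changed unequally. The log2 ratio of Pkm to Pklr was -2.82, -2.85 and -4.16 in Alb/AEG-1 tumours and -3.16, -3.80 and -3.48 in WT tumours. Its mean differed by 0.20, less than the SD of 0.76 among the Alb/AEG-1 tumours, and it was 0.33 among lower and -0.52 among higher animal numbers. The log2 ratio of Slc2a1 to Slc2a2 was -4.54, -4.46 and -4.98 in Alb/AEG-1 tumours and -4.92, -4.44 and -4.93 in WT tumours, a difference of 0.10 with SDs of 0.28 in either group. It was 0.42 among lower and -0.30 among higher animal numbers. Neither pair separated the genotypes.

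**Figure D3:**
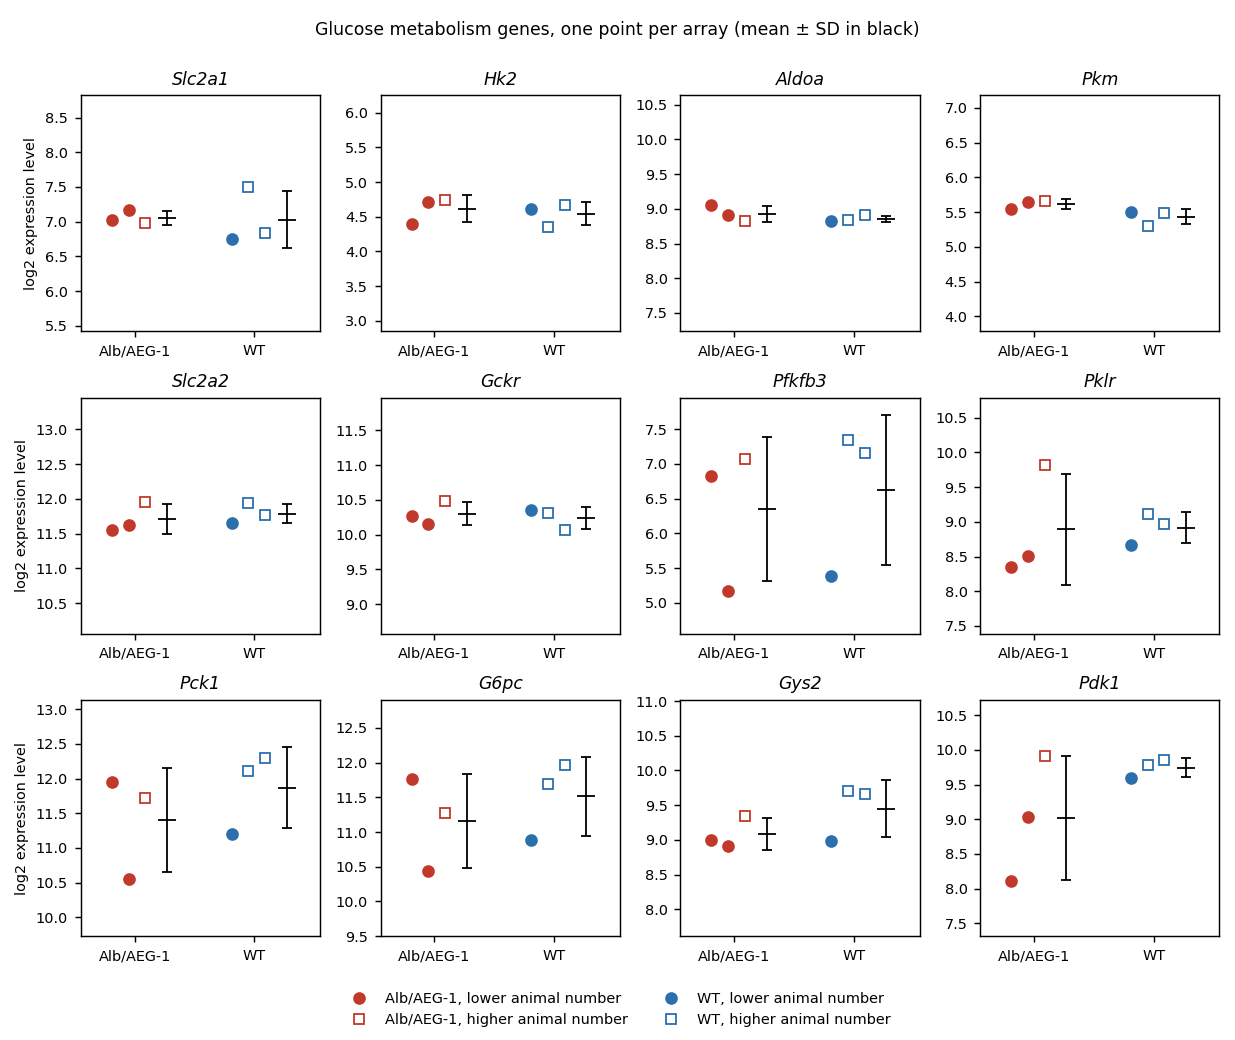
Log2 expression level (y axis, the same span in each panel) of 12 genes, with Alb/AEG-1 tumours left of WT tumours. Circles are arrays of the lower and squares of the higher animal numbers, and black bars give mean ± SD; the groups overlap except in Pkm, and Pfkfb3, Pklr, Pck1, G6pc and Pdk1 spread by over 1 log2 across the arrays.

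None of the lower glycolytic enzymes that also serve gluconeogenesis differed past the test. Tpi1, the triose phosphate isomerase, differed by 0.043 ± 0.095, with values from 11.39 to 11.49 in Alb/AEG-1 and from 11.24 to 11.51 in WT tumours. Pgk1, the phosphoglycerate kinase that makes the first ATP of glycolysis, differed by -0.036 ± 0.092 on an x_at probe set and by -0.045 on one without that mark. Pgam1, a phosphoglycerate mutase, was at 10.64, 10.20 and 10.18 in Alb/AEG-1 tumours and 10.24, 10.06 and 10.13 in WT tumours. Its difference was 0.20 ± 0.14, and 0.048 without Alb/AEG-1 replicate 1. Eno3, the muscle enolase that liver also carries, was at 5.51, 5.38 and 5.42 in Alb/AEG-1 tumours and 5.78, 5.66 and 5.46 in WT tumours (-0.20 ± 0.10, adjusted p = 0.638). Of the 4 muscle markers 2 were negative, Ckm by -0.19 (mean 5.64) and Acta1 by -0.090 (mean 4.94). The other 2 were dimmer and positive, Tnnt3 by 0.0095 (mean 3.71) and Myh4 by 0.027 (mean 2.88). The groups did not overlap in Ckm, nor in 15.1% of all genes. The 4 markers averaged 4.26 in Alb/AEG-1 and 4.32 in WT tumours. The part of muscle cells in the Eno3 value was not tested.

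At the phosphofructokinase step, the muscle form Pfkm was the second gene whose groups did not overlap. It was at 7.12, 7.08 and 7.11 in Alb/AEG-1 tumours, against 7.14, 7.35 and 7.15 in WT tumours. The nearest values of the groups were close together, and the difference was -0.11 ± 0.09 (95% interval -0.32 to 0.094, limma adjusted p = 0.721). WT replicate 2 gave most of it, and without that array it was -0.045.

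The enzymes that decide the fate of pyruvate included the gene with the largest difference of the list, which did not pass. Pdk1, a kinase that switches pyruvate dehydrogenase off and a known target of hypoxia-inducible factor, was at 8.11, 9.03 and 9.91 in Alb/AEG-1 tumours, against 9.59, 9.77 and 9.85 in WT tumours. Alb/AEG-1 replicates 1 and 2 lay below every WT array and Alb/AEG-1 replicate 3 above every WT array. The difference was -0.72 ± 0.39 (0.607-fold, limma adjusted p = 0.644), with an SD of 0.90 in Alb/AEG-1 and 0.14 in WT tumours. The second Pdk1 probe set had the same order of the Alb/AEG-1 arrays (8.10, 8.46 and 9.33) and differed by -0.44 ± 0.28. Pdk1 differed by -1.02 among lower animal numbers and by 0.097 among higher ones. Without Alb/AEG-1 replicate 1 the difference was -0.27, and without replicate 3 it was -1.17. Ldha, which makes lactate, differed by 0.023 ± 0.137, and Pdha1, the catalytic subunit of pyruvate dehydrogenase, by -0.10 ± 0.08 on both of its probe sets in the same direction (-0.14 on the second).

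None of the 4 gluconeogenic enzymes measured differed past the test. Pcx, the pyruvate carboxylase, differed by 0.085 ± 0.106 and Fbp1, the fructose bisphosphatase, by 0.092 ± 0.103. Pck1, the PEP carboxykinase that fasting and glucagon induce, was at 11.95, 10.56 and 11.72 in Alb/AEG-1 tumours, against 11.21, 12.11 and 12.30 in WT tumours. G6pc, the glucose-6-phosphatase that frees glucose for release, was at 11.76, 10.44 and 11.28 in Alb/AEG-1 tumours, against 10.88, 11.70 and 11.96 in WT tumours. In both genes Alb/AEG-1 replicate 2 was the lowest array and WT replicate 1 the next, and WT replicate 3 was the highest. The differences were -0.46 ± 0.41 for Pck1 (adjusted p = 0.749) and -0.35 ± 0.38 for G6pc (adjusted p = 0.789). Both values depended on single arrays. Pck1 differed by -0.035 without Alb/AEG-1 replicate 2, by -0.73 without Alb/AEG-1 replicate 1, by -0.79 without WT replicate 1 and by -0.25 without WT replicate 3. G6pc differed by 0.011, -0.65, -0.67 and -0.13 without the same arrays in turn. A second, dim Pck1 probe set (mean 3.09 in both groups) differed by -0.00069, and the mean of both Pck1 probe sets by -0.23.

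The same pair of arrays was lowest in some other genes of the list. It was not so in all genes of glucose release and storage: Pcx was lowest on WT replicate 3, and Pygl was highest on Alb/AEG-1 replicate 2. Slc37a4, the transporter that feeds glucose-6-phosphate to G6pc in the endoplasmic reticulum, was at 10.07, 9.77 and 10.56 in Alb/AEG-1 tumours, against 9.90, 10.70 and 10.67 in WT tumours (-0.29 ± 0.26). Gys2, the liver glycogen synthase, was at 9.003, 8.91 and 9.34 in Alb/AEG-1 tumours, against 8.98, 9.71 and 9.66 in WT tumours (-0.36 ± 0.21, adjusted p = 0.655). Pfkfb3, which makes the activator of phosphofructokinase, was at 6.83, 5.17 and 7.07 in Alb/AEG-1 tumours, against 5.39, 7.34 and 7.16 in WT tumours. In each group 1 array lay more than 1 log2 below the others, and the difference was -0.27 ± 0.63. It was 0.32 without Alb/AEG-1 replicate 2 and -0.89 without WT replicate 1. A dimmer Pfkfb3 probe set did not show this spread, with values between 4.52 and 4.69. With Fbp1, whose arrays spanned only 0.35, 6 of 27 genes (22.2%) had Alb/AEG-1 replicate 2 and WT replicate 1 as their lowest arrays, and 6.51% of all genes did. This pattern was picked after the values were seen, cuts across the genotypes, and is given as a description. Pdk4, a pyruvate dehydrogenase kinase induced by fasting, was highest on the same arrays, at 5.75, 6.80 and 5.57 in Alb/AEG-1 tumours and 6.78, 4.98 and 5.66 in WT tumours. Pck1 was lowest on them. The cause of this pattern was not tested. The share of all genes highest on these arrays is not given here.

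**Figure D4:**
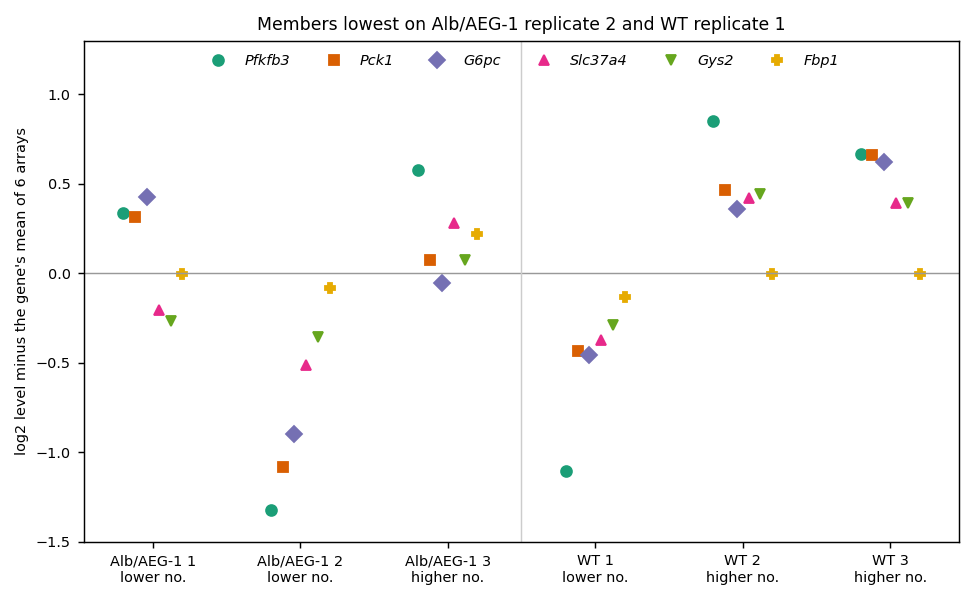
Log2 level minus the gene's mean over the 6 arrays (y axis) of the 6 genes whose lowest arrays were Alb/AEG-1 replicate 2 and WT replicate 1; Alb/AEG-1 arrays stand left of WT arrays. Pfkfb3 lies more than 1 log2 under its mean on both arrays, Pck1 only on Alb/AEG-1 replicate 2, and Fbp1 moves little.

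The promoters of Pck1, G6pc and Slc37a4, 3 of the 6 genes that shared their lowest pair of arrays, are printed here. Each is 300 bases from 250 before to 50 after the annotated start, from RefSeq on GRCm38.p6. Capitals mark TGACG, the core of the cAMP response element, on either strand, and ACGTG, the core of the hypoxia response element, of which these windows hold none. The Pck1 window is chr2:173152823-173153122 (+ strand) and its core lies 90 bases before the start. The G6pc window is chr11:101367466-101367765 (+ strand) and holds neither motif as spelled here. Other spellings of the cAMP response element were not searched for. For Slc37a4 the table has 3 windows, and the first, chr9:44396696-44396995 (+ strand), has the core 61 bases before the start. Of the other genes with this lowest pair, Pfkfb3 also had TGACG in its window, Fbp1 did not, and Gys2 had no window.
Pck1: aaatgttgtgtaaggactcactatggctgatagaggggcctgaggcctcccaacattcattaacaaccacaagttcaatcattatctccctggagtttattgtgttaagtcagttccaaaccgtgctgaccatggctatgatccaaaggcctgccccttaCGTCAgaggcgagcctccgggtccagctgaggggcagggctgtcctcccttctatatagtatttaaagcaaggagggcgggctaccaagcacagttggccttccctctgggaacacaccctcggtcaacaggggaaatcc
G6pc: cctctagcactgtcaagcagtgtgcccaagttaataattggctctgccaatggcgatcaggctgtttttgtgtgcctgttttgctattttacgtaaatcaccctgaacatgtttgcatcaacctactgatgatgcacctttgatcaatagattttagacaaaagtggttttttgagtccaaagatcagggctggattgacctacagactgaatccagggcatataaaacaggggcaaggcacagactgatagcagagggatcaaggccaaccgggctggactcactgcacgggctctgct
Slc37a4: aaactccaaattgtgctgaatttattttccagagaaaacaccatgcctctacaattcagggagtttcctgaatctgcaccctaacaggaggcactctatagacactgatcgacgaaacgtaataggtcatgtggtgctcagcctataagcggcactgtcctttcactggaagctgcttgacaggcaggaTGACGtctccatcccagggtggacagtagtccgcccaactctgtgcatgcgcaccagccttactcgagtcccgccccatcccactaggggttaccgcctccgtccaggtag

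Of the 27 measured genes 26 had a promoter in the table. TGACG, chosen after the array pattern was seen, was found in 8 of the 26 (30.8%) and in 21.0% of all 27025 promoters. ACGTG was found in 10 (38.5%) and in 19.7% of all promoters. The 10 were Hk2, Slc2a1, Pgk1, Ldha, Pfkfb3, Pfkm, Aldoc, Pgam1, Pcx and Pygl. It was not found in the Pdk1 window. CACGTG, the E-box core that contains ACGTG, was found in 3 (Pfkm, Ldha and Pcx, 11.5%) and in 7.24% of all promoters. These are matches of letters within 1 window per gene, both strands counted, and say nothing about binding.

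Glycogen phosphorylases were compared across their forms, of which only Pygl belongs to the list of 31. Pygl, the liver glycogen phosphorylase, was at 11.82, 11.94 and 11.66 in Alb/AEG-1 tumours, against 11.79, 11.87 and 11.80 in WT tumours, a difference of -0.0074 ± 0.096 (95% interval -0.23 to 0.22). Pygb, the brain form that fetal tissues also express, was at 5.69, 6.13 and 5.59 in Alb/AEG-1 tumours, against 4.98, 4.88 and 5.17 in WT tumours. The lowest Alb/AEG-1 value exceeded the highest WT value, and the difference was 0.79 ± 0.16 (1.73-fold, 95% interval 0.43 to 1.16). It did not pass over all probe sets (limma, unadjusted p = 0.00108, adjusted p = 0.596). Among lower animal numbers it was 0.93 and among higher ones 0.57. Pygb had 1 probe set, and its mean of 5.41 lay below the median probe set of the array (5.83). The third form, the muscle phosphorylase Pygm, differed by -0.091.

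Pygb came from a list of 70 other genes of the pathway, of which 58 were measured and 24 were positive and 34 negative. At an adjusted p of 0.05 (limma) 0 of 58 passed, and 2 of 58 stood below an unadjusted p of 0.05, against 8.33% of all genes. Both were positive: Pygb and Slc2a9, a urate and hexose transporter (0.39 ± 0.14, adjusted p = 0.611). With 1 array left out, Slc2a9 differed by 0.28 to 0.51. The count below the unadjusted p was 7 without WT replicate 1 and 4 without Alb/AEG-1 replicate 3. The share of all genes in those 2 fits is not given here, so these counts cannot be set against a background. The median difference of the 58 was -0.056.

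Regulators of the pathway were among those named by rule. Mlxipl, the glucose-responsive factor ChREBP that drives Pklr, was at 10.81, 10.77 and 11.04 in Alb/AEG-1 tumours, against 11.04, 11.23 and 11.06 in WT tumours. The groups met without overlapping, and the difference was -0.24 ± 0.10 (adjusted p = 0.618), or -0.18 to -0.32 with 1 array left out. Ppargc1a, a coactivator of the gluconeogenic program, was at 6.10, 5.69 and 6.76 in Alb/AEG-1 tumours, against 7.21, 6.89 and 6.17 in WT tumours (-0.57 ± 0.33), and all 5 of its probe sets had a negative difference. The difference was -1.31 among lower animal numbers and 0.23 among higher ones, and -0.33 to -0.87 with 1 array left out. Irs2, the insulin receptor substrate that is repressed by insulin, differed by -0.57 ± 0.29. It was -0.94 without Alb/AEG-1 replicate 1 and -0.29 without Alb/AEG-1 replicate 3. With the range of animal numbers in the model it was -0.75 (limma, unadjusted p = 0.0229). Foxo1, the insulin-restrained factor that activates G6pc, differed by -0.20 ± 0.15. The other Foxo1 probe sets differed by -0.39 ± 0.12 (limma adjusted p = 0.596), -0.12 and 0.047. In the first of these the groups did not overlap, nor did they in 15.1% of all genes. Hif1a, the oxygen-regulated subunit of hypoxia-inducible factor, differed by 0.10 ± 0.11.

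The remaining genes of the pathway named by rule had overlapping groups and did not pass the test. Gyg, the glycogen primer, differed by 0.32 ± 0.17, Bpgm, a bisphosphoglycerate mutase, by 0.23 ± 0.12 and Pfkfb2, a relative of Pfkfb3, by -0.18 ± 0.10. Without WT replicate 1, Gyg differed by 0.52 and Bpgm by 0.32. Ldhb, the lactate dehydrogenase of heart, differed by -0.12 ± 0.09 and Pck2, the mitochondrial PEP carboxykinase, by 0.12 ± 0.10. Pdk2 differed by -0.15 ± 0.14, Pdk4 by 0.23 ± 0.48 and Slc2a3, the neuronal transporter GLUT3, by -0.13 ± 0.10. Gapdh had no probe set of its own and was not analysed here.

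The spread among tumours was wide in a few genes. The values of a gene spanned more than 1 log2 over the 6 arrays in 5 of 27 genes (18.5%), against 4.74% of all genes, and these were Pfkfb3 (2.17), Pdk1 (1.80), Pck1 (1.74), G6pc (1.52) and Pklr (1.46). At the other end, Hk1 spanned 0.17, Pgk1 0.20 and Pdha1 0.21. Differences among lower and among higher animal numbers had opposite signs in 16 of 27 genes (59.3%), against 46.0% of all genes. With the range as a term in limma, 0 of 27 genes stood below an unadjusted p of 0.05.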

How the data were processed

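RNA of liver tumours from 6 male mice had been hybridized to Affymetrix mouse arrays, from 5 µg of total RNA per the labels' protocols. The deposited values are log2 expression levels made by the authors with RMA, per the submitters' processing notes, which state no version. RMA corrects background, quantile-normalizes arrays and summarizes probes, so a change common to nearly all genes cannot be seen. Array medians differed by at most 0.0301 log2, and correlations between arrays lay between 0.987 and 0.993 (a description over probe sets).

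Of 22690 probe sets, 64 controls were left out. Of the remaining 22626, 20380 had 1 gene symbol in the platform annotation, 691 had several and 1555 had none; no gene was named from the last 2 kinds. Symbols were updated by gene ID against a RefSeq table of GRCm38.p6. The probe set with the highest mean stood for each of 12393 genes. Alb/AEG-1 and WT arrays were compared with limma 3.58.1 under R 4.3.3 (a linear model per probe set, then empirical Bayes moderation on 7.53 total degrees of freedom; 2-sided), Benjamini-Hochberg over all probe sets, threshold 0.05. Intervals are 95% intervals of that fit, which was tested on simulated data. Plots used matplotlib 3.10.9.

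Groups came from the genotype labels, and replicate numbers follow accession order and pair nothing. Each array has its own animal number, so arrays were taken as separate animals. Genes named are all measured members, the 8 other pathway genes with the smallest unadjusted p, and fixed isoforms and regulators. Pygm, the muscle markers and Clec4f, and the TGACG motif, were added after their values were seen. Members and lists were chosen with earlier results of these data known. Alternatives are given in the closing section. Some listed genes are not reported here. Scanner files were not used here.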

Additional observations from a re-analysis of the deposited data

How the results depend on the processing

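No paired analysis was possible because the labels give no replicate numbers. Over 16 alternatives, 0 members passed an adjusted limma p of 0.05. Members below an unadjusted p of 0.05 numbered 0 in the main setting and with every alternative that kept all arrays, and 0 to 2 when 1 array was left out. The median difference of the members stayed between -0.091 and -0.0074 and that of the liver isoforms between -0.20 and 0.018. The median of the tumour isoforms, -0.015 as reported, was 0.069 with the range of animal numbers in the model, -0.056 without dim probe sets (mean under 5) or without x_at and s_at probe sets, 0.057 with the mean of all probe sets, and -0.032 to 0.073 with 1 array left out; the cause was not tested. For 15 of 27 members the sign of the difference changed in at least 1 alternative; Hk1 and Pfkp moved by more than 1 SD, both with the mean of all probe sets. Other pathway genes below an unadjusted p of 0.05, 2 as reported, numbered 2 to 7 with 1 array left out. For members and other pathway genes alike, the share of all genes in the fits without 1 array is not given here. Over the whole array the count of called probe sets, 1 as reported, was 0 with 1 probe set per gene or the range of animal numbers in the model, 2 with a variance trend or the mean of all probe sets, and 0 to 1 with 1 array left out (0 without Alb/AEG-1 replicate 3, WT replicate 1 or WT replicate 2). The ratio of Pkm to Pklr differed by -0.095 to 0.65 and that of Slc2a1 to Slc2a2 by 0.0033 to 0.26. An alternative planned for linear values did not apply to log2 data and was not run. Depth has no meaning here; 5 members (Hk1, Hk2, Pfkp, Pkm, Eno3) lay below the median probe set, and Hk2 alone had a mean under 5.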
